A study of Mus musculus with 17 samples.

Results

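B lymphocytes and the plasma cells that arise from them were followed through 36 genes in the lungs of mice labelled as Clic4 knockout (KO) or wild type (WT). The 36 genes were taken by gene symbol from the authors' FPKM table and joined to the counts by gene ID, and each of the 36 was found among the 54146 genes of the files. Of these, 30 mark B cells and 6 mark plasma cells and antibody secretion. All 36 passed the filter on low counts, which left 19557 genes.

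The lungs came from mice with the strain label FVB/6DT1 and were sequenced as bulk RNA at 2 time points. At day 0, when the mice were 6 weeks old, there were 4 WT and 2 Clic4 KO libraries. At day 14, when they were 8 weeks old, there were 6 WT and 5 Clic4 KO libraries, so day and age changed together. All groups carry the same strain label. The labels do not state whether a treatment separates day 0 from day 14, how the knockout was made, or which animal gave which library, so p-values reflect only how far these samples spread, and part of that spread may be technical. Group sizes follow the labels, which differ from those in the design text. Libraries are named here by group and number.

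Each library held 20607811 to 35743830 counts. CPM stands for counts per 1000000 counts of a library. For Clic4 itself the means ± SD at day 0 were 943.3 ± 13.1 CPM in WT (n = 4) and 325.9 ± 2.16 CPM in the knockouts (n = 2). At day 14 they were 1043 ± 154 CPM (n = 6) and 335.8 ± 38.6 CPM (n = 5), and Clic4 passed the test at both days (log2 fold changes of -1.53 and -1.64, edgeR adjusted p = 1.93e-05 and 9.95e-09). Clic4 counts were thus lower in KO but not absent. The tissue label matched its markers: Sftpc, the surfactant protein gene of alveolar type 2 cells, lay between 10237 and 14251 CPM in the 17 libraries. Of the markers of B cell precursors, Rag2 reached 0.06 CPM, Igll1 0.09 CPM, Vpreb1 0.63 CPM, Rag1 0.84 CPM and Dntt 1.38 CPM, and Il7r, which T cells also express, lay between 10.9 and 38.9 CPM.

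A B cell carries an antigen receptor made of membrane immunoglobulin and the signalling chains CD79A and CD79B. Naive B cells carry IgM and IgD together on their surface and pass through the lung with blood or settle in small lymphoid aggregates. After activation, some B cells become plasma cells, which shut down much of the B cell programme and secrete antibody. In airways and gut this antibody is largely IgA, joined into dimers by the J chain.

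Levels were compared between genes per transcript length, as the authors' FPKM (fragments per kilobase of transcript and per 1000000 fragments), averaged over the 17 libraries. The kappa light chain constant gene Igkc stood highest at 253 FPKM. Both cell types make kappa chains, so Igkc is counted here with the plasma cell members only because the list places it there. The alpha heavy chain gene Igha followed at 73.8 FPKM and the mu heavy chain gene Ighm at 64.8 FPKM. Among the genes that are not antibody chains, the levels were 28.2 FPKM for Vpreb3, 21.4 FPKM for the tetraspanin gene Cd37, 17.4 FPKM for Cd79b, 17.02 FPKM for Jchain and 15.8 FPKM for Cd79a. The lowest members were Tnfrsf17, the BCMA receptor of plasma cells, at 0.398 FPKM and the Fc receptor-like gene Fcrl5 at 0.137 FPKM. These rest on few reads, 2 to 15 counts in a library for Tnfrsf17 and 1 to 16 for Fcrl5.

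The promoters of Blnk, Vpreb3 and Cd22 are shown because they carry textbook motifs of B cell transcription factors. Pou2f2 and its coactivator Pou2af1, both members, encode proteins that act at the octamer ATGCAAAT, and EBF1, the early B cell factor, binds palindromes of the kind TCCC and GGGA spaced by 2 free bases. Capitals mark the octamer (here in its reverse complement) in Blnk and Vpreb3 and the EBF motif in Cd22. The sequences are RefSeq windows on GRCm38.p6, from 250 bases before to 50 after an annotated start, written 5′ to 3′ on the gene's strand. The Blnk window is chr19:40994172-40994471 on the minus strand, the Vpreb3 window chr10:75948050-75948349 on the plus strand and the Cd22 window chr7:30878979-30879278 on the minus strand.
Blnk: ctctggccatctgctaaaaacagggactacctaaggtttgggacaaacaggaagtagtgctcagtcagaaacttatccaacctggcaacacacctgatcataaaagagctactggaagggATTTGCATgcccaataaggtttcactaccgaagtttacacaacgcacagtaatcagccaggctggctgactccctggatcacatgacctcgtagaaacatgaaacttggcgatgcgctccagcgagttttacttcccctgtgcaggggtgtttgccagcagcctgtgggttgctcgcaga
Vpreb3: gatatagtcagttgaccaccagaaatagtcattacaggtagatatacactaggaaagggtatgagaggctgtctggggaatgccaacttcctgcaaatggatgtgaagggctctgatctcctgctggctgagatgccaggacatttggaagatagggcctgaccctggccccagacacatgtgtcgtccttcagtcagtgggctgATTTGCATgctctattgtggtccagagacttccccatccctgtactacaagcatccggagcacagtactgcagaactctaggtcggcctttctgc
Cd22: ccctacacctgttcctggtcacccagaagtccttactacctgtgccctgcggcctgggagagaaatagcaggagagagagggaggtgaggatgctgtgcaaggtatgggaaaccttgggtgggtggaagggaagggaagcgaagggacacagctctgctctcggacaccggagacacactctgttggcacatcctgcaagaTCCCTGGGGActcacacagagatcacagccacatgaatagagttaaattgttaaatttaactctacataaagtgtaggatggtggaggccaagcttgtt
The octamer begins 130 bases before the start of Blnk and 45 before that of Vpreb3, and the EBF motif lies 49 bases before that of Cd22.

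Promoter windows of 25 members were used, in 30 windows. Chromosome 18, where Mzb1 lies, was left out for the members but not for the windows of all genes. On either strand, the octamer was in 2 of these 30 windows and in 1.735% of 32851 windows of all genes. The EBF motif was in 1 member window and in 0.9041% of all windows. Another motif, the ETS sequence GAGGAAGT of the kind bound by the member Spib, was in the windows of Fcrl1, Cd72 and Cd37 and in 3.202% of all. A match describes letters in a window, not a bound site. Blnk followed the other B cell members from library to library, whereas Vpreb3, with the same octamer, did not.

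The B cell members moved as a block. Each member's log2 CPM, centred on its group mean, was set against the mean of the other B cell members over the 17 libraries. The correlation was at least 0.75 for 24 of the 30. It was 0.973 for Bank1, a scaffold of antigen receptor signalling, 0.970 for Cd79a, 0.966 for Ighd, 0.955 for the lineage factor Pax5 and 0.846 for Blnk. These values describe points that share library and depth.

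The other 6 B cell members followed the block less closely or not at all. Vpreb3, which encodes a chaperone of the mu chain in developing B cells, had a correlation of -0.520. Cd180, a Toll-like receptor relative that myeloid cells also carry, had -0.237. Cd72, an inhibitory coreceptor, stood at 0.254 and Tnfrsf13b, the TACI receptor for the survival factors BAFF and APRIL, at 0.380. Ralgps2, an exchange factor for Ral GTPases, had 0.517 and Stap1, an adaptor of antigen receptor signalling, 0.650. Ralgps2 overlaps Angptl1 on the opposite strand over 22517 bases, Cd72 overlaps Tesk1 and Cd180 overlaps Mast4. Whether the counting used strand is not given in the sources used here, so reads of these overlapping pairs are uncertain. In the GENCODE M21 annotation 17 of the 36 members overlap another gene, 6 of them a protein-coding gene.

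**Figure D1:**
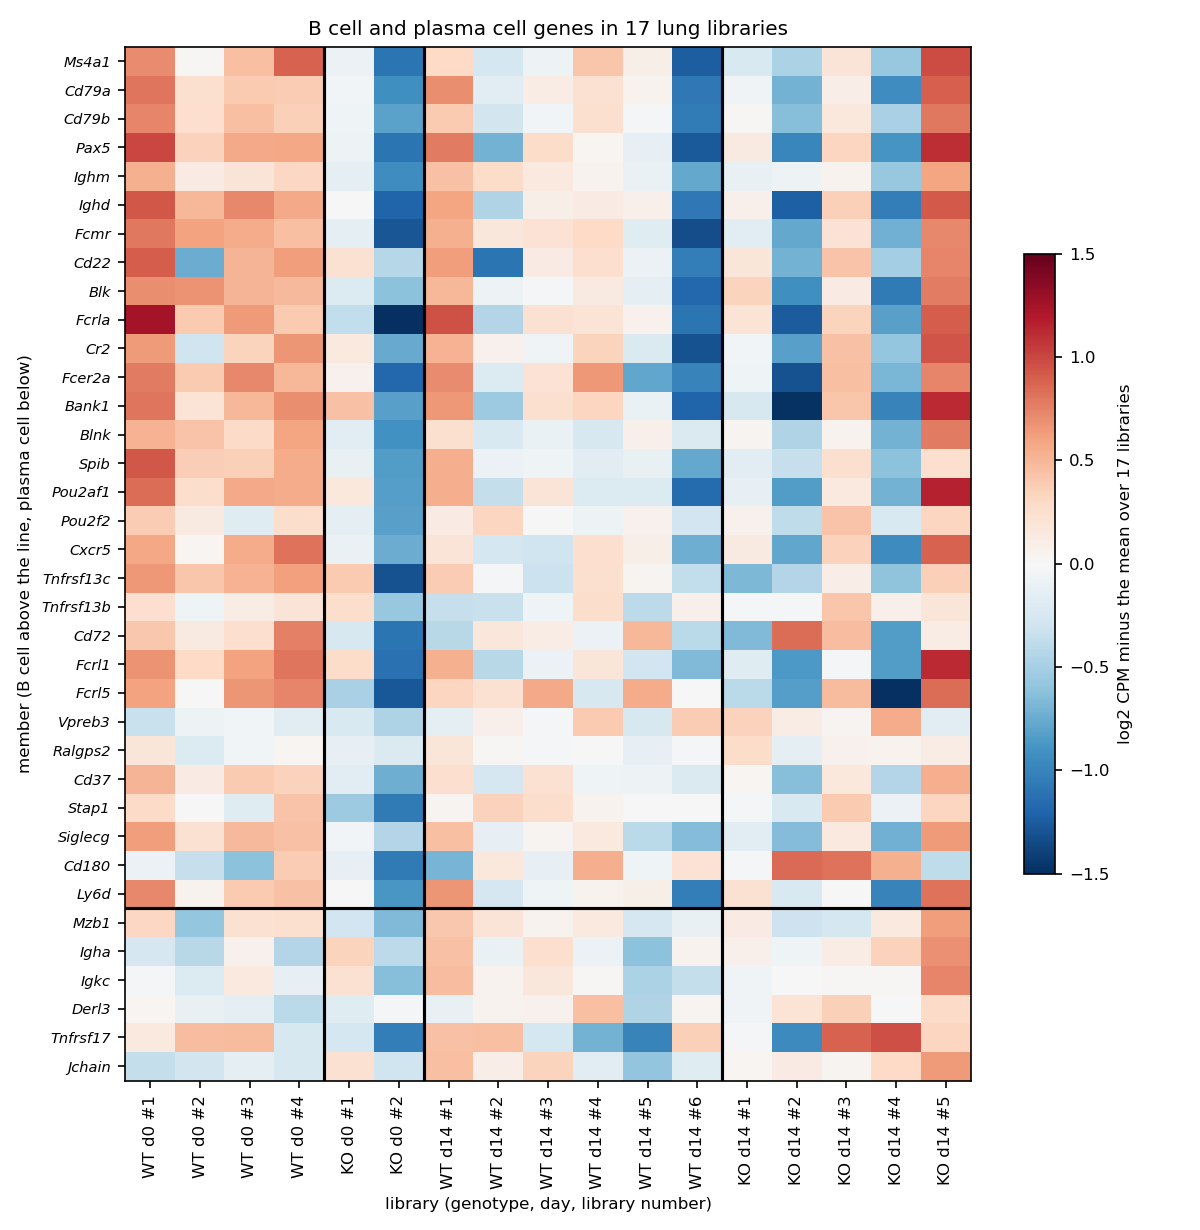
Each cell is the log2 CPM of a member (row) in a library (column) minus that member's mean over the 17 libraries, red above and blue below, with black lines between groups and between B cell and plasma cell members. Most B cell members are blue together in KO day 0 library 2, in WT day 14 library 6 and in 2 KO libraries of day 14 (2 and 4), and red together in WT day 0 library 1 and KO day 14 library 5.

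The libraries can be ordered by the mean log2 CPM of the 30 B cell members. KO day 14 library 5 stood highest, 0.64 above the mean of all libraries, followed by WT day 0 library 1 at 0.61. KO day 0 library 2 stood lowest at -0.90, followed by WT day 14 library 6 at -0.68 and KO day 14 library 4 at -0.60. The 4 WT day 0 libraries lay between 0.15 and 0.61 and KO day 0 library 1 at -0.05. The day 14 groups covered nearly the whole range, with -0.68 to 0.35 in WT and -0.60 to 0.64 in KO.

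At day 0 the B cell members were lower in KO than in WT, without a gene passing the test. The plasma cell members lay on both sides of 0, and no test compared the classes. The median log2 fold change (KO over WT) of the 30 B cell members was -0.86, with 30 of 30 below 0, against a median of 0.0007 over all genes tested, of which 49.8% lay below 0. No member passed an adjusted p of 0.05 by edgeR's quasi-likelihood test, where 0.0256% of all genes did. At an unadjusted p under 0.05 there were 14 lower B cell members, against 3.59% of all genes by edgeR. The count of members at that p was 18 by DESeq2 and 18 by limma-voom, whose shares of all genes at that p are not given here. Over all genes tested DESeq2 called 26, limma-voom 4 and edgeR 5, so the methods were not equally strict. In 22 B cell members both KO libraries lay below all 4 WT libraries, against 9.11% of all genes. The members share their cells and libraries, so these counts are not independent of each other, and in bulk lung fewer B cells and less RNA per B cell cannot be told apart.

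The size of this difference depended on both KO day 0 libraries. Without library 2 the median of the B cell members was -0.51, and without library 1 it was -1.34. With KO day 0 library 1 alone on the KO side, 22 B cell members still lay below every WT library, but so did 24.9% of all genes. Leaving out WT day 0 library 1 lowered the count of B cell members at an unadjusted p under 0.05 to 8. Leaving out WT day 0 library 4 lowered it to 9. The shares of all genes at that p in these fits are not given here, so the counts have no background.

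The antigen receptor chains show the pattern. Cd79a (chr7:24897381-24902197, plus strand) measured 32.7, 22.0, 24.6 and 24.4 CPM in the WT day 0 libraries and 18.2 and 9.86 CPM in the KO libraries. Both KO values lay below every WT value, and library 2 lay far below library 1. The log2 fold change was -0.89 (SE 0.499, adjusted p = 0.785 by edgeR), and an exact two-sided permutation test gave p = 0.0667, the smallest that 15 splits allow. Ighd, the delta heavy chain (chr12:113406604-113416324, minus strand), measured 54.2, 40.4, 47.1 and 42.4 CPM in WT and 28.3 and 12.4 CPM in KO. The groups did not overlap, with a log2 fold change of -1.18 (SE 0.578, edgeR adjusted p = 0.749).

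Ighm (chr12:113418558-113422730, minus strand) measured 134, 101, 106 and 115 CPM in WT and 83.9 and 48.3 CPM in KO. Its groups did not overlap either, and the log2 fold change was -0.78 (SE 0.333, edgeR adjusted p = 0.723). Ms4a1, the CD20 surface protein, measured 19.8, 12.2, 16.5 and 22.3 CPM in WT and 11.3 and 5.58 CPM in KO. Here the higher KO library lay just under the lowest WT library, and the log2 fold change was -1.06 (SE 0.49, edgeR adjusted p = 0.73). Among the 8 members of the antigen receptor and its signalling, 8 were below 0 with a median of -0.92, and the groups of 7 did not overlap; Bank1, at -0.63, was the exception.

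The 3 B cell members with the smallest p at day 0 were Stap1, Spib and Blnk. Stap1 measured 5.23, 4.26, 3.76 and 5.77 CPM in WT and 2.89 and 2.01 CPM in KO. Both KO libraries lay below the 4 WT libraries, with a log2 fold change of -0.95 (SE 0.224) and an edgeR adjusted p of 0.401. DESeq2 called it, with an adjusted p of 0.0393. It was the only member that DESeq2 called in this comparison, in which DESeq2 called 26 of all genes. Spib, an ETS transcription factor of B cells and plasmacytoid dendritic cells, measured 21.8, 14.8, 14.7 and 16.8 CPM in WT and 10.6 and 6.37 CPM in KO. That is a log2 fold change of -1.01 (SE 0.319, edgeR adjusted p = 0.619). Blnk, the linker that carries the antigen receptor signal from SYK, measured 10.7, 10.1, 9.11 and 11.3 CPM in WT and 6.67 and 3.95 CPM in KO, with groups apart and a log2 fold change of -0.95 (SE 0.309, edgeR adjusted p = 0.619).

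Surface proteins and coreceptors had 13 of 13 members below 0, with a median of -0.87. They ran from Fcrl5 (-1.71, SE 0.704) and Fcrla (-1.60, SE 0.621), both Fc receptor-like genes, to Cd180 (-0.40, SE 0.392). The IgM receptor gene Fcmr stood at -1.22 (SE 0.48), the low-affinity IgE receptor gene Fcer2a at -1.04 (SE 0.576) and the complement receptor gene Cr2 at -0.61 (SE 0.504). In 10 of the 13 the groups did not overlap; in Cd22, Cr2 and Cd180 they did. Cd22, an inhibitory coreceptor, was low in WT day 0 library 2 as well, at 8.92 CPM against 21.5 to 28.2 CPM in the other WT libraries.

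The 4 transcription factors had a median of -0.92, from -1.14 in Pax5 (SE 0.61) to -0.61 in Pou2f2 (SE 0.232). The 3 cytokine and chemokine receptors stood at -0.92 for the follicle homing receptor Cxcr5 (SE 0.427), -0.79 for the BAFF receptor Tnfrsf13c (SE 0.369) and -0.22 for Tnfrsf13b (SE 0.219). Vpreb3 and Ralgps2 were nearest to 0, at -0.19 (SE 0.194) and -0.17 (SE 0.111). Vpreb3 measured 11.6, 13.8, 14.2 and 13.0 CPM in WT and 12.5 and 10.6 CPM in KO, so its groups overlapped.

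The plasma cell members had 3 values above and 3 below 0 at day 0, with a median of -0.03, and 0 of them had an unadjusted p under 0.05 by edgeR, DESeq2 or limma-voom. Relative to the mean of all libraries, their mean log2 CPM lay at 0.009 in KO day 0 library 1 and at -0.51 in library 2, the lowest of day 0. Without KO day 0 library 1 the median was -0.37. Jchain (chr5:88519809-88527891, minus strand) measured 16.0, 16.9, 18.5 and 17.3 CPM in WT and 24.0 and 16.6 CPM in KO. KO library 1 lay above every WT library and KO library 2 among them, and the log2 fold change was 0.24 (SE 0.236, edgeR adjusted p = 0.882; exact two-sided permutation p = 0.333). Igha (chr12:113254830-113260236, minus strand) measured 56.3, 50.4, 70.2 and 49.5 CPM in WT and 84.7 and 51.2 CPM in KO. The groups overlapped, with a log2 fold change of 0.26 (SE 0.27, edgeR adjusted p = 0.891). Igkc (chr6:70726435-70726966, plus strand) measured 85.7, 74.96, 95.9 and 79.8 CPM in WT and 101 and 55.7 CPM in KO, so the KO libraries lay on either side of the WT libraries at a log2 fold change of -0.10 (SE 0.284).

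Mzb1 and Tnfrsf17 stood below 0. Mzb1, an endoplasmic reticulum cochaperone of antibody assembly that marginal zone B cells also express, measured 3.99, 2.13, 3.76 and 3.80 CPM in WT and 2.61 and 2.01 CPM in KO. WT library 2 lay among the KO values, and the log2 fold change was -0.56 (SE 0.283, edgeR adjusted p = 0.75). The annotation places Mzb1 inside SPATA24 on the same strand over 2100 bases, so reads of the 2 genes could be shared. Tnfrsf17 had 9, 11, 10 and 5 counts in WT and 5 and 2 counts in KO (log2 fold change -1.11, SE 0.715, edgeR adjusted p = 0.801). Derl3, which takes part in the degradation of misfolded secretory proteins, stood at 0.04 (SE 0.226).

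**Figure D2:**
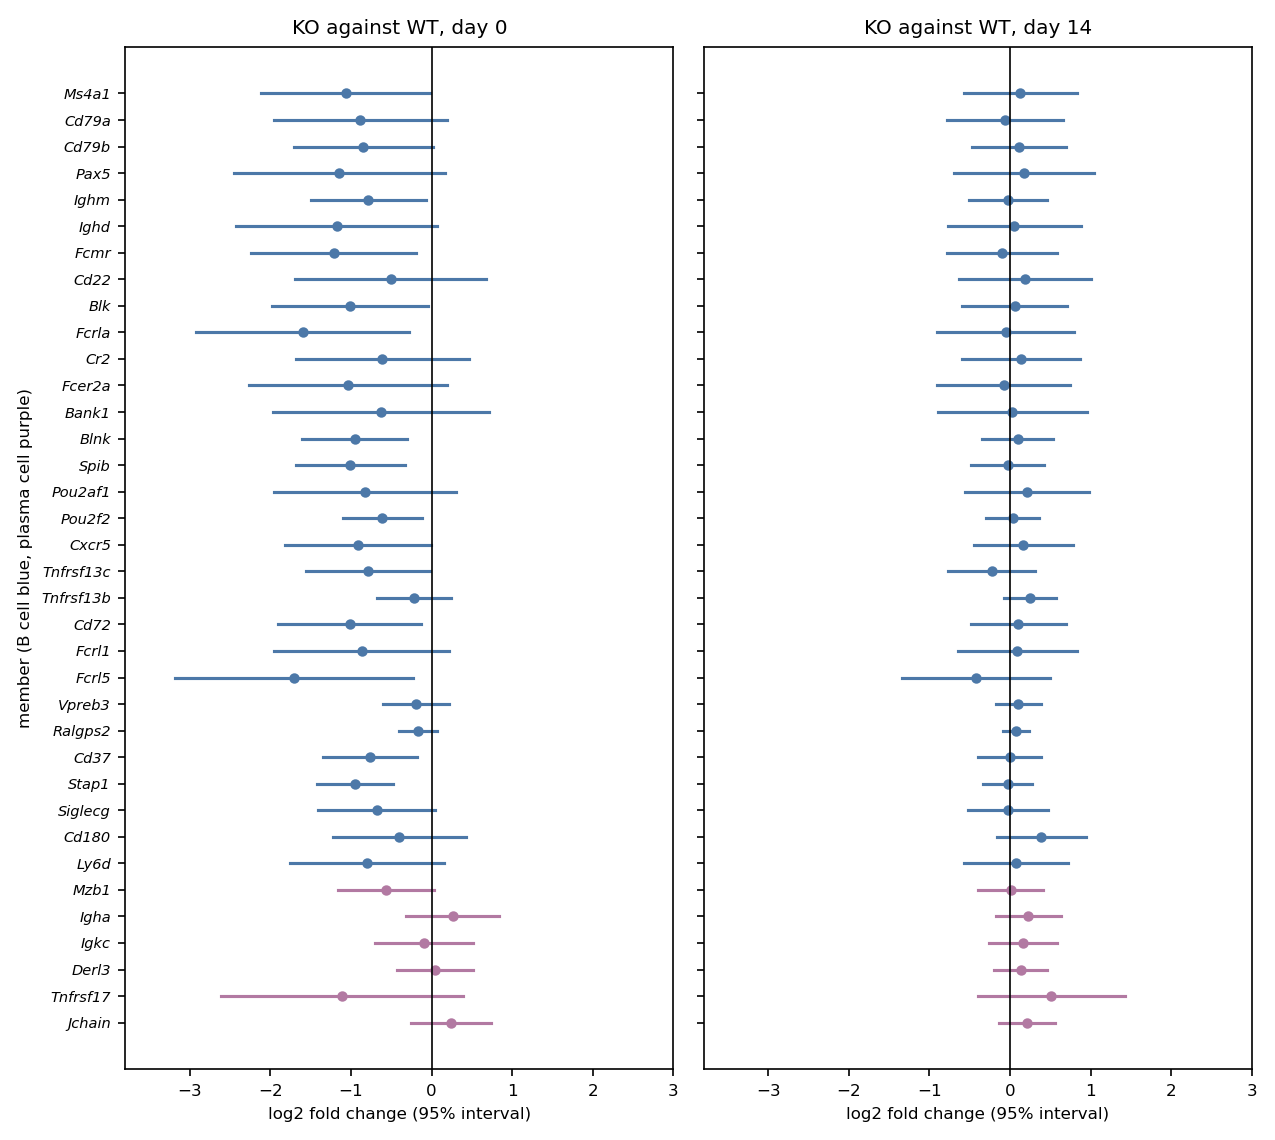
Points are log2 fold changes of KO over WT at day 0 (left) and day 14 (right) for the 36 members, and lines their 95% intervals from the edgeR model, with B cell members in blue and plasma cell members in purple. At day 0 all 30 blue points lie left of 0 and 3 of 6 purple points right of it, and at day 14 the points lie close to 0.

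The ratio between the classes put the 2 KO libraries apart from WT at day 0. Cd79a over Jchain, in CPM, was 2.05, 1.31, 1.33 and 1.41 in the WT libraries and 0.758 and 0.594 in the KO libraries. Both KO ratios lay below every WT ratio, including that of KO library 1, whose Jchain was the highest of the day 0 libraries. At day 14 the ratio ran from 0.488 to 1.43 in WT, with a median of 0.931, and was 0.861, 0.509, 0.944, 0.385 and 1.09 in KO, so the groups overlapped. These ratios were described without a test.

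The heavy chain constant genes were also described as shares of their summed FPKM. Shares of a common total are tied, so lower Ighm and Ighd raise the Igha share. They restate the values of these members, and Igha itself overlapped between the genotypes in CPM at day 0. Igha made up 30.6, 33.4, 39.3 and 29.8% in the WT day 0 libraries and 49.9 and 51.8% in the KO libraries. Ighd made up 16.99, 15.9, 15.3 and 14.9% in WT and 9.65 and 7.28% in KO. Both shares were apart between the genotypes at day 0, with Igha higher and Ighd lower in KO, and the IgG genes together overlapped, at 6.66 to 11.2% in WT and 8.82 and 9.64% in KO. At day 14 the genotypes overlapped, with an Igha share of 34.5 to 56.6% in WT and 42.5 to 58.9% in KO. Its highest values, in KO day 14 library 4 and WT day 14 library 6, belonged to libraries low in B cell members. The lambda genes made up 11.0 to 12.9% of the light chain constant FPKM in WT at day 0 and 7.18 and 7.56% in KO.

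**Figure D3:**
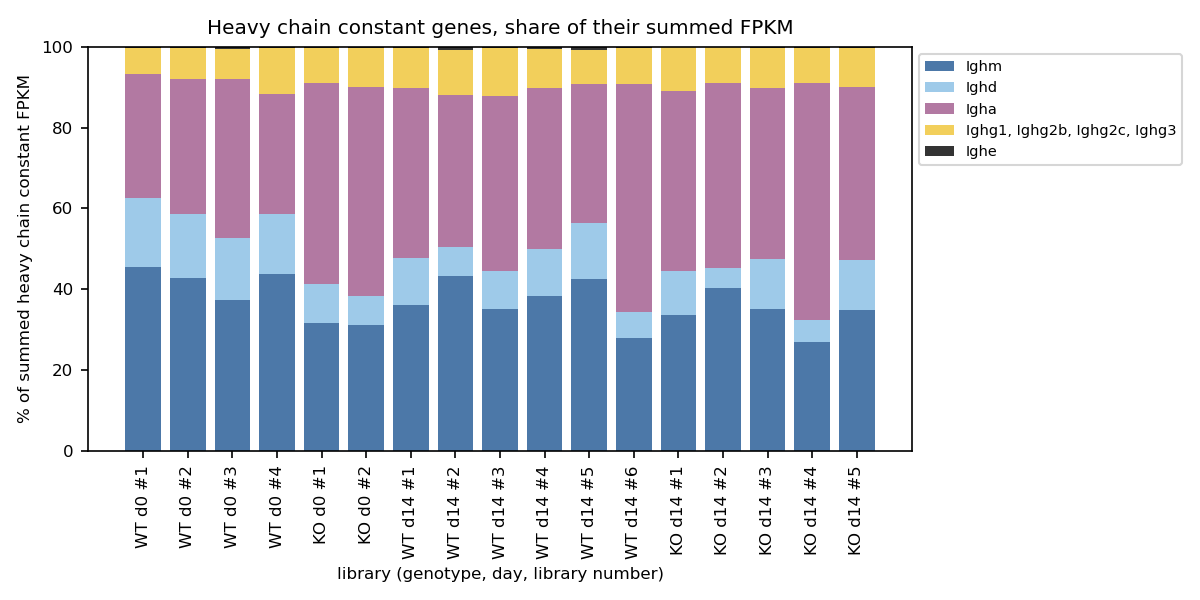
Bars are the shares of the heavy chain constant genes in their summed FPKM in each of the 17 libraries, with the 4 IgG genes drawn together. The Igha share is 49.9 and 51.8% in the KO day 0 libraries and at most 39.3% in the WT day 0 libraries, and the day 14 groups overlap.

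Variable gene segments, examined after the other results were seen, were spread over many genes. Over the 17 libraries 104 of 113 Ighv genes and 95 of 100 Igkv genes had counts. The best counted were Ighv8-8 with 9.05% of the Ighv counts and Igkv1-110 with 9.09% of the Igkv counts. In single libraries 51 to 77 Ighv genes were counted in WT at day 14 and 58 to 68 in KO. At day 0 the 33 tested Ighv genes had a median log2 fold change of -0.14 and the 59 tested Igkv genes one of -0.12. No segment was called by edgeR, and at an unadjusted p under 0.05 there were 2 lower Ighv genes, and 4 higher and 1 lower Igkv genes. Over all 19557 genes 702 were lower and 617 higher at that p. Some segments of a family are near-identical, and reads could be split between those.

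At day 14 no difference between KO and WT was detected in either class. No member passed an adjusted p of 0.05, where 0.107% of all genes did, and 0 members had an unadjusted p under 0.05 by edgeR, DESeq2 or limma-voom, against 8.95% of all genes by edgeR. The B cell members had 19 values above and 11 below 0 with a median of 0.07, against 0.001 over all genes, of which 50.3% were above 0. Of the 30, 0 had groups that did not overlap, against 0.583% of all genes higher and 0.394% lower. The median was -0.02 by limma-voom and -0.19 without KO day 14 library 5. The plasma cell members had 6 of 6 values above 0, with a median of 0.19. Without KO day 14 library 5 the plasma cell median was 0.094, with Mzb1 at -0.15 and Igkc at -0.02. It was 0.096 without WT day 14 library 5 and 0.30 without WT day 14 library 1.

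The day 14 groups were wide. Cd79a ran from 8.83 to 30.3 CPM in WT, with a median of 19.8, and measured 18.04, 11.4, 19.95, 9.73 and 34.8 CPM in KO. The KO libraries covered most of the WT range, with KO library 5 above its highest value. The log2 fold change was -0.07 (SE 0.336, 95% interval -0.79 to 0.66, edgeR adjusted p = 0.977), and the exact two-sided permutation p was 0.803. Ighd ran from 13.6 to 42.8 CPM in WT, with a median of 30.2, and measured 30.2, 12.2, 36.6, 13.9 and 54.1 CPM in KO, with overlapping groups and a log2 fold change of 0.06 (SE 0.384). For Cd79a, differences from -0.79 to 0.66 were compatible with these libraries at the 95% level.

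The B cell members with the smallest p at day 14 were among those that did not follow the block. Tnfrsf13b ran from 4.46 to 7.05 CPM in WT, with a median of 5.13, and measured 5.80, 5.75, 7.83, 6.20 and 6.68 CPM in KO. The KO libraries lay in the upper part of the WT range or above it, with a log2 fold change of 0.25 (SE 0.151, edgeR adjusted p = 0.677). Cd180 ran from 2.84 to 6.80 CPM in WT, with a median of 4.81, and measured 4.53, 8.45, 8.24, 6.77 and 3.56 CPM in KO (log2 fold change 0.39, SE 0.26, edgeR adjusted p = 0.706). Ralgps2 stood at 0.08 (SE 0.0765, edgeR adjusted p = 0.819).

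Among the plasma cell members Jchain ran from 13.6 to 28.0 CPM in WT at day 14, with a median of 20.1, and measured 21.0, 22.4, 21.1, 25.3 and 32.04 CPM in KO. Every KO library lay above the WT median and KO library 5 above all WT libraries, but the groups overlapped. The log2 fold change was 0.21 (SE 0.165, edgeR adjusted p = 0.76), and the exact two-sided permutation p was 0.281. Igha ran from 43.9 to 91.4 CPM in WT, with a median of 66.7, and measured 71.1, 64.0, 72.5, 85.7 and 108 CPM in KO, at a log2 fold change of 0.23 (SE 0.19, edgeR adjusted p = 0.777). Tnfrsf17, at 2 to 15 counts, stood at 0.51 (SE 0.437, edgeR adjusted p = 0.777).

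**Figure D4:**
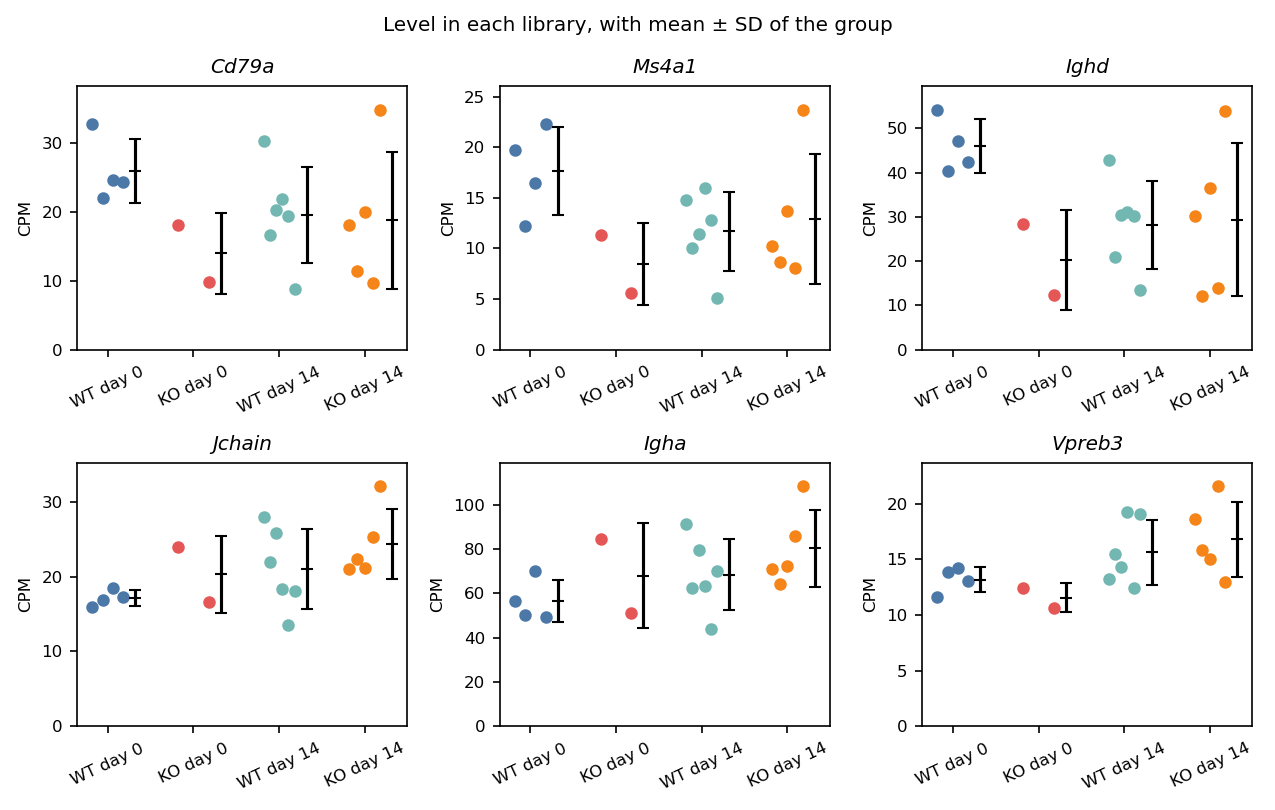
Points are the CPM of 6 members in each library by group, and black bars the group mean and SD. In Cd79a, Ms4a1 and Ighd both KO day 0 points lie below the 4 WT day 0 points, in Jchain, Igha and Vpreb3 the day 0 groups overlap, and at day 14 the groups overlap in all 6.

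Between the days the medians of the B cell members had opposite signs in the 2 genotypes, and the test of that difference called no member. The KO day 0 group, with its 2 libraries, enters the day 0 comparison, the day comparison in KO and the test of the difference, so these share libraries. In WT 27 of 30 B cell members were lower at day 14 than at day 0, with a median log2 fold change of -0.51, against 0.002 over all genes, of which 49.6% were below 0. In KO 30 of 30 were higher at day 14, with a median of 0.44, against 0.010 over all genes, of which 52.6% were above 0. The KO effect at day 14 minus that at day 0, which equals the difference between these changes over time, had 30 of 30 B cell members above 0 (51.1% of all genes) and a median of 0.94, against 0.005 over all genes.

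In WT no gene of the whole table was called between the days by edgeR, a share of 0%, and 3 B cell members had an unadjusted p under 0.05, lower at day 14, against 4.34% of all genes. They were Spib (-0.64, SE 0.222, edgeR adjusted p = 0.392), Blnk (-0.53, SE 0.216, 0.463) and Tnfrsf13c (-0.55, SE 0.26, 0.551). By DESeq2 7 members and by limma-voom 9 members reached an unadjusted p under 0.05, and neither called a member. Over the whole table DESeq2 called 113 genes and limma-voom 1, so the methods were not equally strict. Their shares of all genes at the unadjusted p are not given here. Blnk and Tnfrsf13c were the 2 members whose groups did not overlap, against 1.38% of all genes. Blnk measured 9.11 to 11.3 CPM at day 0 and 6.30 to 8.80 CPM at day 14, with a median of 6.67.

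Plasma cell members moved little in WT, with 5 of 6 above 0 and a median of 0.12. Jchain stood at 0.29 (SE 0.178, edgeR adjusted p = 0.637), Igha at 0.28 (SE 0.204, 0.697) and Derl3 at 0.19 (SE 0.166, 0.753). The WT day 0 libraries of Jchain lay close together, from 16.0 to 18.5 CPM, and those of day 14 lay on both sides of them.

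In KO no gene was called between the days by edgeR either, a share of 0%. An unadjusted p under 0.05 was reached by 5 B cell members, higher at day 14, against 4.33% of all genes by edgeR. It was reached by 7 members with DESeq2 and 5 with limma-voom, which over the whole table called 93 and 0 genes. The shares of all genes at that p by these 2 methods are not given here. Stap1 measured 2.89 and 2.01 CPM at day 0 and 4.19, 3.62, 5.64, 3.999 and 5.34 CPM at day 14, with the groups apart. Its log2 fold change was 0.89 (SE 0.219), with an adjusted p of 0.211 by edgeR and 0.0285 by DESeq2, which called no other member here. Vpreb3 measured 12.5 and 10.6 CPM at day 0 and 18.6, 15.8, 15.0, 21.5 and 13.0 CPM at day 14, also apart (0.54, SE 0.19, edgeR adjusted p = 0.393). Stap1 and Vpreb3 were the 2 members whose groups did not overlap, against 5.6% of all genes.

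Cd180 stood at 0.97 between the days in KO (SE 0.386, edgeR adjusted p = 0.461), with overlapping groups. The plasma cell members were above 0 in 6 of 6, with a median of 0.30. Those with the smallest p were Mzb1 (0.57, SE 0.276, edgeR adjusted p = 0.557), Tnfrsf17 (1.31, SE 0.696, 0.591) and Derl3 (0.28, SE 0.22, 0.734). With KO day 0 library 2 left out, the B cell median was 0.14, and without KO day 14 library 5 it was 0.22.

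The test of the difference called no gene of the whole table by edgeR, a share of 0%. An unadjusted p under 0.05 was reached by 6 B cell members, all above 0, against 2.52% of all genes by edgeR. It was reached by 12 members with DESeq2 and 5 with limma-voom, neither of which called a member. Over the whole table they called 9 and 0 genes, and their shares of all genes at the unadjusted p are not given here. The smallest p were those of Stap1 (0.92, SE 0.266), Blnk (1.05, SE 0.371) and Spib (0.98, SE 0.381), each with an edgeR adjusted p of 0.988. Among plasma cell members 4 were above and 2 below 0, with a median of 0.18, and Tnfrsf17 (1.62, SE 0.837), Mzb1 (0.57, SE 0.34) and Igkc (0.26, SE 0.347) had the smallest p. With KO day 0 library 2 left out, the B cell median was 0.51.

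Members were also compared in pairs across the libraries. Over 12 relations tested with 100000 permutations within groups on group-centred log2 CPM, Cd79a and Ms4a1 had r = 0.922 (permutation p = 3e-05, adjusted 0.00036; rho = 0.875, permutation p = 0.00018, adjusted 0.00216), and r = 0.845 without the 2 libraries farthest from the median of Cd79a. Jchain and Igha had r = 0.894 (permutation p = 0.0002, adjusted 0.0008; rho = 0.804, permutation p = 0.00078, adjusted 0.00312), and r = 0.816 without 2 libraries. Cd79a and Jchain had r = 0.452 (permutation p = 0.134, adjusted 0.162; rho = 0.407, permutation p = 0.181, adjusted 0.218), and r = 0.283 without 2 libraries. As measured, without centring, Cd79a and Jchain had r = 0.137. Other pairs across the classes passed the test: Cd79a and Igkc had r = 0.727 (permutation p = 0.00716, adjusted 0.0172; rho = 0.684, permutation p = 0.0131, adjusted 0.0314), and r = 0.593 without 2 libraries. Cd79a and Mzb1 had r = 0.569 (permutation p = 0.0232, adjusted 0.0464; rho = 0.586, permutation p = 0.0239, adjusted 0.0478), and r = 0.421 without 2 libraries. That these correlations differ from each other was not tested.

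**Figure D5:**
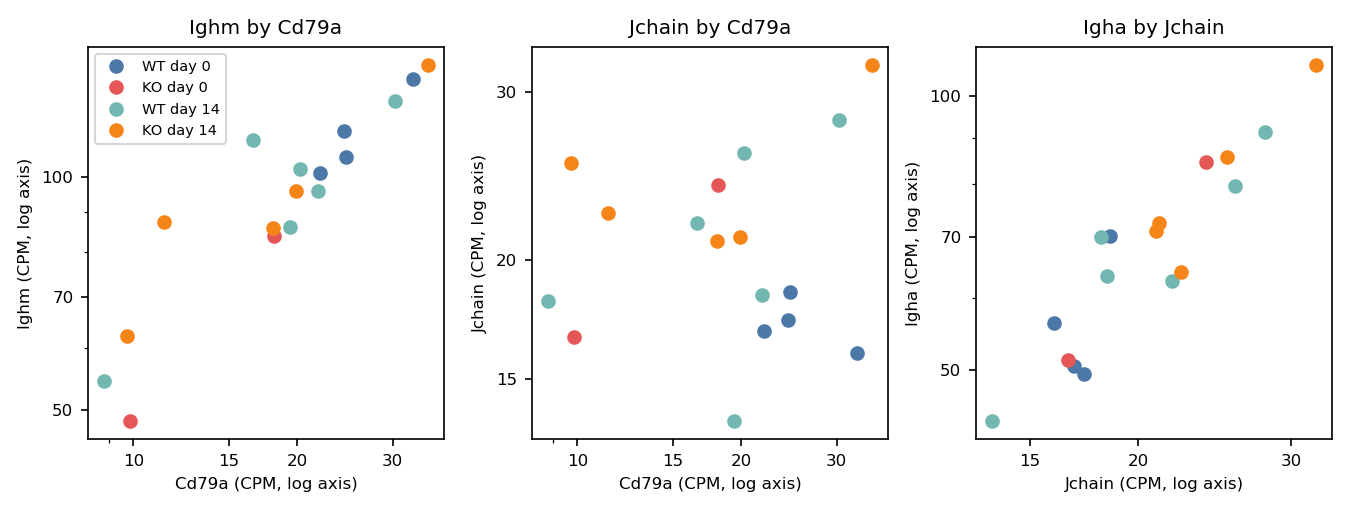
Each point is a library, coloured by group, with CPM on log axes for Ighm by Cd79a (left), Jchain by Cd79a (middle) and Igha by Jchain (right). The left and right pairs lie along a line (r = 0.912 and 0.894, centred on group means), and the middle pair is scattered (r = 0.452).

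Among the genes outside the list whose group-centred level was most like the mean of the B cell members, of 15589 searched over 17 libraries, were H2-Ob (r = 0.939), Iglc2 (0.925), Trim7 (0.924), Ighg3 (0.923), Iglc3 (0.915), Carmil2 (0.910), Hvcn1 (0.900), Rhof (0.891) and AC140283.1 (0.890). For the plasma cell members the 10 most alike held no antibody gene. They were the processed pseudogenes RP23-315F23.1 (0.907), RP23-56D7.2 (0.852), RP23-59B8.2 (0.825), RP23-317M11.9 (0.817), RP23-338K15.1 (0.812) and RP23-324H19.3 (0.809), and Acaa1b (0.865), Galm (0.849), Sirt2 (0.820) and Matk (0.817). The plasma cell mean weighs its members equally, and Tnfrsf17, at 2 to 15 counts, ran from -2.82 to -0.81 in log2 CPM. Count noise of that gene thus enters the ranking. The ranks are the top of a large search, were not tested and do not place these genes in plasma cells.

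Other genes of B cell identity and antigen receptor signalling, 18 in a list outside the members, had 18 of 18 values below 0 at day 0, with a median of -0.20, and 4 of them had an unadjusted p under 0.05, against 3.59% of all genes lower at that p and 49.8% below 0. Prkcb, a kinase downstream of the antigen receptor, stood at -0.87 (SE 0.287, edgeR adjusted p = 0.628) and Bach2, a repressor that holds back plasma cell differentiation, at -0.42 (SE 0.162, edgeR adjusted p = 0.697). Ebf1, which lung stromal cells also express, stood at -0.02 (SE 0.15). At day 14 the list had 9 values above and 9 below 0. Of 21 other genes of plasma cells and secretion, 8 were above and 13 below 0 at day 0. Sdf2l1, of the secretory chaperone machinery, stood at 0.54 (SE 0.181) and the lambda constant gene Iglc2 at -0.93 (SE 0.402), with edgeR adjusted p of 0.628 and 0.723.

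A list of 14 genes held lymphoid tissue ligands and B cell survival factors, and also Glycam1, Madcam1 and the polymeric immunoglobulin receptor gene Pigr. Of these 14, 13 were tested, and 6 were higher at day 14 in KO at an unadjusted p under 0.05, against 962 of all 19557 genes. None of them was called. Cxcl12, a chemokine for B cells and plasma cells, ran from 261 to 338 CPM in WT and measured 402, 404, 376, 344 and 330 CPM in KO, with KO library 5 inside the WT range (log2 fold change 0.34, SE 0.0751, edgeR adjusted p = 0.116). At day 0 Cxcl12 ran from 329 to 394 CPM in WT and measured 485 and 424 CPM in KO, above every WT library. Ccl19, a chemokine of lymphoid tissue, stood at 0.48 (SE 0.156, edgeR adjusted p = 0.38). Glycam1 was uneven within groups. It measured 17.8 CPM in WT day 0 library 4, and 0, 0 and 0.03 CPM in the other WT day 0 libraries. In KO at day 14 it measured 7.07 CPM in library 5, the highest in B cell members, and 0.31 to 1.69 CPM in the others. Whether Glycam1 went with the level of the members was not tested. The BAFF gene Tnfsf13b stood at -0.05 at day 0 (SE 0.119) and at -0.00016 at day 14 (SE 0.0832). Glycam1, Tnfsf13b, Ebf1 and the named variable segments were chosen after their values were seen.

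Markers of other cells differed between the libraries too. At day 0 the summed CPM of 14 T cell markers was 143 to 205 in WT and 114 to 141 in KO, and that of 8 natural killer cell markers 82.2 to 169 and 32.6 to 67.2. Of the T cell markers 14 of 14 and of the natural killer cell markers 8 of 8 had log2 fold changes below 0, with medians of -0.47 and -1.13. The groups did not overlap in 6 T cell and 8 natural killer cell markers, against 9.11% of all genes lower. Lower levels in KO at day 0 were thus not particular to the B cell members. At an unadjusted p under 0.05 by edgeR there were 2 lower T cell and 7 lower natural killer cell markers, against 3.59% of all genes. The 6 plasmacytoid dendritic cell markers were below 0 in 6 of 6 as well, with a median of -0.80 and 3 of them at an unadjusted p under 0.05, and their summed CPM was 272 to 312 in WT and 234 to 243 in KO. Centred on group means, the T cell gene Cd3e and Cd79a had r = 0.731 over the 17 libraries (permutation p = 0.00468, adjusted 0.014; rho = 0.725, permutation p = 0.00468, adjusted 0.014), and r = 0.628 without 2 libraries. KO day 0 library 2, lowest in B cell members, had the highest summed CPM of 7 adipose markers, 142 against 40.7 to 55.0 in WT at day 0, and 24.2 CPM of the brown fat gene Ucp1. KO day 14 library 5, highest in B cell members, had the highest summed CPM of 6 blood cell genes, 31857 against at most 14039 in any day 0 library. In the same test, Cd79a had r = 0.096 with the fat gene Adipoq (permutation p = 0.753, adjusted 0.753). With the natural killer cell gene Ncr1 it had r = 0.404 (permutation p = 0.132, adjusted 0.162). With the haemoglobin gene Hbb-bs it had r = 0.569 (permutation p = 0.042, adjusted 0.072), and 0.300 without 2 libraries. Beyond these relations of single genes, the part of these cells and libraries in the values of the members was not tested.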

How the data were processed

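RNA of mouse lungs was extracted with Qiagen kits and made into libraries with Illumina TruSeq kits, per the labels' protocols. The authors' processing used STAR 2.5.3, RSEM 1.3.0, limma 3.38.3 and the build mm10, per the submitters' processing notes. The annotation release is not given in the sources used here. The deposited expected counts per gene, 1 file per library, were rounded to whole numbers. The authors' FPKM table served for levels between genes, for shares and as an alternative unit.

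Genes were filtered with filterByExpr, scaled by TMM (factors 0.977 to 1.01) and tested with edgeR 4.0.16 (glmQLFit, glmQLFTest) over the 4 groups, with Benjamini-Hochberg adjustment over 19557 genes and a threshold of 0.05. SE is the size of a log2 fold change over the root of its F statistic, and intervals are at 95%. CPM uses TMM-scaled library sizes. Correlations used log2 CPM with a prior count of 2. DESeq2 1.42.0, limma 3.58.1 (voom, or log2(FPKM + 1)), other scalings and filters, and leaving out each library were alternatives. The edgeR script was tested on simulated data. R 4.3.3, scipy 1.17.1, pandas 2.3.3 and matplotlib 3.10.9 were used. Library totals were 20607811 to 35743830 counts, which leaves Tnfrsf17 and Fcrl5 with few reads.

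The members and lists were chosen with earlier results of these data known. Given by library or range were 9 set members, and, where nothing was called, the 3 members of each class with the smallest p, the 2 such genes of each list of other B cell and plasma cell genes and ligands, and the 10 genes most alike in pattern, of which 1 is not reported here. Positions are on GRCm38 (mm10), from GENCODE M21.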

Additional observations from a re-analysis of the deposited data

Results flagged for a closer look

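In 3 of 108 sets of 4 to 6 libraries (36 members, 3 groups), 1 library lay far from the others by Dixon's criterion, and chance alone gives about 1 in 20. Fcrl1, an Fc receptor-like gene, measured 9.59 CPM in KO day 14 library 5, and 2.37 to 4.32 CPM in the other 4 libraries of that group. Igkc measured 144 CPM in the same library, and 83.6 to 88.0 CPM in the others. Mzb1 measured 2.13 CPM in WT day 0 library 2, and 3.76 to 3.99 CPM in the other 3. KO day 14 library 5 also held the highest mean of the B cell members.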

How the results depend on the processing

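Of 4617 values of single members under alternatives, 4615 stayed without a call and 2 gained a call. As edgeR called no member, no called value could be lost or reversed. Signs did change: the B cell median of KO against WT at day 14 ran from -0.19 to 0.21 when 1 library was left out. The gained calls were Stap1 by DESeq2, which called 1 member in KO against WT at day 0 and 1 between the days in KO, where edgeR called 0. In these comparisons DESeq2 called 26 and 93 of all genes, against 5 and 0 by edgeR. No member was called when any 1 library was left out. Leaving out 1 library moved the medians of the B cell members from -1.34 to -0.51 (KO against WT at day 0), from 0.14 to 0.94 (days in KO) and from 0.51 to 1.39 (difference between the KO effects). For the plasma cell members the ranges were -0.37 to 0.11, 0.19 to 0.71 and 0.0377 to 0.57, and at day 14 (KO against WT) 0.094 to 0.30. The cause was not tested. In the comparisons that include KO day 0, leaving out 1 of its libraries leaves 1 in that group, which is then assumed to vary like the other groups. The comparison of KO and WT at day 14 does not include that group. No paired analysis was possible because the labels give the groups no shared replicate numbers. Tnfrsf17 dropped below the filter without KO day 14 library 3, and Fcrl5 and Tnfrsf17 below the FPKM filter, so these values were not run. The fit on the compared groups alone was not run for the difference between the days. With 2 libraries in the KO day 0 group, and 2 to 15 counts of Tnfrsf17, precision was limited there.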
